A study of Mus musculus with 4 samples.

Results

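The genes described here encode the proteins of the cytosolic ribosome in 4TO7, a line of mammary carcinoma cells from the mouse. They were chosen by symbol: protein-coding genes named Rpl, Rps or Rplp with a number, plus Rpsa and Fau, leaving out the Rps6 kinases and symbols ending in -ps. 85 of the 55385 genes in the table met that rule. 78 of them were main copies (43 of the 60S subunit, 3 of the P stalk and 32 of the 40S subunit) and 7 were paralogs (Rpl3l, Rpl7l1, Rpl10l, Rpl22l1, Rpl36al, Rpl39l and Rps27l). The rule itself uses no measured value, but it was chosen with earlier results of these data known. The cells came from digested Balb/c tumors, and their RNA was sequenced in bulk. 2 libraries were made from tumors that resisted anti-PD-L1, which blocks the checkpoint ligand PD-L1, and 2 from control tumors. The groups follow the source labels. The treatment label calls all 4 samples untreated, whereas their protocol names anti-PD-L1 in vivo, so what the control tumors received is not settled here. The series calls the libraries biological replicates but ties none to an animal, so p-values measure the spread between these libraries. The libraries held 45666470 to 49592054 counted reads. In bulk RNA, fewer cells of a type and less RNA per cell cannot be told apart.

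The ribosome has a large 60S subunit, where peptide bonds form, and a small 40S subunit, where the mRNA is decoded. The P stalk, a part of the large subunit, recruits the elongation factors. In mammals most of these proteins come from 1 expressed gene each, and their mRNAs begin with a run of pyrimidines (a 5′ terminal oligopyrimidine, or TOP, tract) through which mTOR signalling sets their translation. A few have an expressed paralog with restricted or regulated use: Rps27l is a known p53 target, Rpl3l belongs to heart and skeletal muscle, and Rpl10l and Rpl39l to the testis. Ribosomal protein mRNAs have also been copied back into the genome many times, leaving processed pseudogenes with almost the same sequence.

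Examples of those copies are shown first because the counted levels went with them. The lines below give 60 bases of coding sequence, 5′ to 3′, on GRCm38 (mm10) with the GENCODE M21 annotation. Lower case letters match the main copy and capitals mark mismatches to it. Rps3 lies at chr7:99482641-99482700 (minus strand), and no other annotated gene holds its stretch. Rps6 lies at chr4:86856800-86856859 (minus strand), and 5 pseudogenes hold exactly the same bases, among them Rps6-ps1 at chr15:76337622-76337681 (plus strand). Fau lies at chr19:6058251-6058310 (plus strand), and its 1 pseudogene, Gm9843 at chr16:76403593-76403652 (minus strand), repeats it without a mismatch. Rps27 at chr3:90213242-90213301 (minus strand) is set beside the pseudogene Gm15531 at chr6:97890474-97890533 (minus strand), with 2 mismatches, and its paralog Rps27l at chr9:66946831-66946890 (plus strand), with 19. Exactly the Rps27 bases are held by 1 other annotated gene, which is not a pseudogene, and by 0 pseudogenes.
Rps3: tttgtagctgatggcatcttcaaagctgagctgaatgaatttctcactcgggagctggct
Rps6: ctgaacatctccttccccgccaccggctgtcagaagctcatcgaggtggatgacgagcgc
Rps6-ps1: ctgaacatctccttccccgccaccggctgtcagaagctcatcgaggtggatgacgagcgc
Fau: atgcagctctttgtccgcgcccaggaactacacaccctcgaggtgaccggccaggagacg
Gm9843: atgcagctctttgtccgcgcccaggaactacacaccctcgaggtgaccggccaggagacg
Rps27: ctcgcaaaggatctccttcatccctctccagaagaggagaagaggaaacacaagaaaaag
Gm15531: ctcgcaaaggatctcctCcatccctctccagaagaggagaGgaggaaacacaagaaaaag
Rps27l: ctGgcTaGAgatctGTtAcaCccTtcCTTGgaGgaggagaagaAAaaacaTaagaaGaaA
The shown bases of Rps6 and Fau are the same in their pseudogenes, whereas those of Rps27l differ from Rps27 along the whole stretch.

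The main copies differed enormously in counted RNA level. The ribosome holds nearly all of these proteins in equal number, but protein was not measured here and equal protein need not mean equal mRNA. Their mean normalized count over the 4 libraries ran from 7.09 for Rps29 to 121210 for Rpl4. Normalized counts are reads divided by the authors' size factor for each library. Per kb of transcript, which allows for gene length, they ran from 13.9 for Rpl24 to 78810 for Rpl4, a 5652-fold span. The length is that of 1 annotated transcript per gene, which need not be the one expressed. For Rps15a and Rps20 it was 5130 and 3706 bases, with 390 and 357 of them coding. Their levels of 1800 and 3488 per kb depend on that choice. Rps6, the 40S protein that S6 kinases phosphorylate, was at 38.4 per kb, while Rps3, another 40S protein, was at 31308 per kb. In single libraries, Rps6 had 27.5 and 20.4 normalized counts in the resistant and 38.4 and 48.4 in the control libraries. Rps3 had 69089 and 56677 against 49748 and 63432. Rps29 (6.44 to 8.15 over the libraries) and Rpl24 (4.80 to 13.1) were too low to be tested.

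The level went with how much of a gene's coding sequence is its own. For each gene, the share of its 50-base coding stretches that occur in no transcript of another annotated gene was computed. The median share was 6.87% for the 78 main copies. A main copy shared a 50-base stretch with a median of 8.5 pseudogenes, and Rpl7a, a 60S protein, with 120. The 30 main copies with no stretch of their own had a median level of 288 per kb (13.9 to 6753). The 29 with under 20% of their own had a median of 1926 per kb (57.1 to 14945). The 9 between 20% and 50% had a median of 16146 per kb (6356 to 67932). The 10 with at least 50% had a median of 42229 per kb (21765 to 78810), a span of only 3.62-fold. By mean normalized count, not divided by length, these 10 ran from 8575 to 121210. The 29 with under 20% ran from 40.6 to 15826, which overlaps them. Across the 78 genes, level and own share correlated with a Spearman rho of 0.76 and a Pearson r of 0.73, a description over genes that share libraries and sequence. Each Pearson r in this paragraph was taken with the level per kb on a log2 scale. With 100-base stretches rho was 0.72 (n = 77), and with whole transcripts in place of coding sequence 0.56. The number of pseudogenes sharing a 50-base stretch was related to level less closely, with a rho of -0.49 and an r of -0.28 (n = 78). The 78 mitochondrial ribosomal protein genes, whose median own share was 100%, gave a rho of 0.20 and an r of 0.48, with 42 of them at 100%. The sources used here do not give how the authors' counting treated reads that fit several genes, and its part in these levels was not tested. The counts of the low main copies are therefore uncertain as measures of their mRNA.

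**Figure D1:**
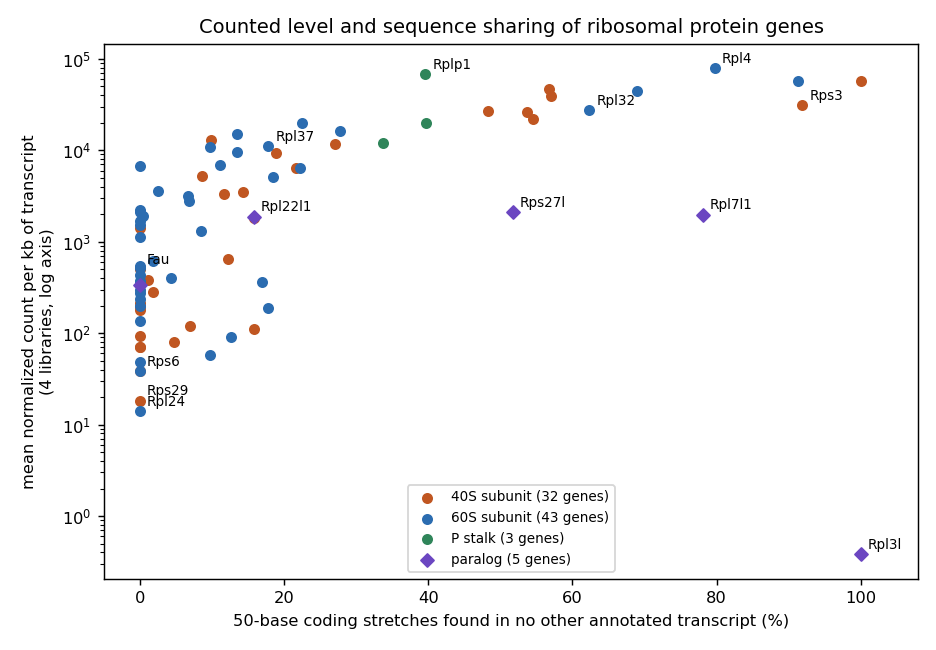
Mean normalized count per kb of transcript over the 4 libraries (log axis) against the percentage of 50-base coding stretches found in no other annotated gene's transcript; each point is a gene, coloured by subunit, and diamonds are the 5 paralogs with a read (Rpl10l and Rpl39l, at 0, are left out). The main copies at or above 50% lie between 21765 and 78810 per kb, while those at 0% spread from 13.9 to 6753.

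The paralogs did not all lie on the scale of the main copies. Rps27l, with 51.7% of its coding stretches its own, stood at 2116 per kb and Rpl7l1, with 78.1%, at 1972 per kb, both below the range of 21765 to 78810 of main copies with that much of their own. Rpl22l1, with 15.8% its own, was at 1873 per kb, near the median of 1926 per kb of main copies with under 20%. Rpl36al, with 0%, was at 335 per kb, near the median of 288 per kb of main copies with none. Rpl3l, whose stretches are all its own, had 1 read in each resistant library and 0 in both control libraries. Rpl10l and Rpl39l had 0 reads in every library, which allows up to 3 reads in each.

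A few main copies held a large part of the reads of the ribosomal protein genes. Rpl4, Rps3, Rpl8, Rplp1 and Rps9 were among the 6 with the highest mean normalized counts, an order by reads and not per length. Rpl4, a 60S protein that lines the exit tunnel, had 138889.8 and 125677 in the resistant libraries and 100811 and 119464 in the controls, which did not overlap. Its log2 difference, resistant minus control, was 0.27 ± 0.16 (SE, limma adjusted p = 0.323). Rps3, which lies at the mRNA entry channel, had overlapping groups, with the values given above (0.16 ± 0.17). The other 3 also missed the threshold, at 0.16 ± 0.14 for Rpl8, 0.13 ± 0.14 for Rplp1 of the P stalk and -0.07 ± 0.11 for Rps9. Rpl4, Rps3 and Rpl8 alone took 0.405% to 0.548% of all reads. All members together took 1.54% (exact 95% binomial interval 1.535 to 1.542) and 1.33% (1.329 to 1.336) of reads in the resistant libraries and 1.26% (1.260 to 1.266) and 1.49% (1.484 to 1.491) in the controls, intervals that cover counting error only. The groups overlapped, with means of 1.44% ± 0.15 and 1.38% ± 0.16 (SD, n = 2 each). The two-sided exact permutation p was 0.667, and 2 against 2 cannot go below 0.333.

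Between resistant and control cells, few ribosomal protein genes passed the test. Of the 76 main copies tested (a mean of at least 10 normalized counts), 2 were higher in resistant cells, Rpl37 and Rpl32, and 1 was lower, Fau, at a limma adjusted p under 0.05 over all 14238 genes tested. That is 3.95% of the main copies, beside 10.1% of all genes tested (5.32% higher and 4.73% lower). The median log2 difference was 0.07 over the main copies and 0.00 over all genes tested. It lay below 0 when resistant replicate 1 or control replicate 1 was left out (-0.04 and -0.05) and at 0.16 and 0.17 without the other library of either group. 70 of the 76 lay within 0.5 of 0, and the range ran from -0.84 to 0.64. The groups did not overlap for 27 main copies, or 35.5% (16 above and 11 below), beside 56.7% of all genes tested.

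**Figure D2:**
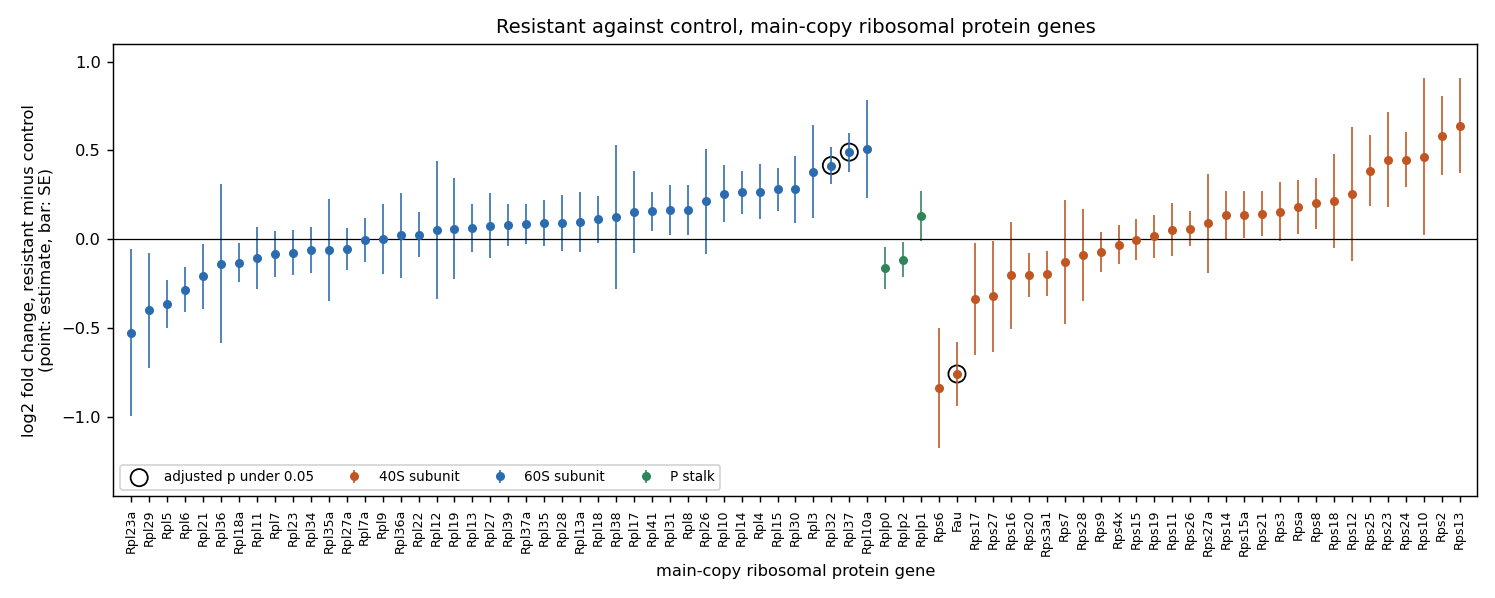
Log2 difference, resistant minus control (n = 2 each), of 75 of the 76 main copies tested, ordered within the 60S subunit, the P stalk and the 40S subunit; points are limma estimates, bars their SE, and rings mark an adjusted p under 0.05. Most genes lie near 0, and the ringed genes are Rpl32 and Rpl37 above it and Fau below it.

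In the large subunit, 2 of 42 tested genes were called, both higher (median log2 difference 0.08). Rpl37 (ENSMUSG00000041841.8, chr15:5116645-5119140, plus strand) encodes a small zinc-binding protein of the 60S subunit. It had 11388 and 10135 normalized counts in the resistant libraries and 7423 and 7878 in the controls. Both resistant libraries lay above both controls. The log2 difference was 0.49 ± 0.11 (limma adjusted p = 0.0333). 17.8% of its coding stretches are its own, and Rpl37rt, a transcribed pseudogene copy, had 321 and 385 against 179 and 213. The median log2 difference of the 26 tested genes within 5 Mb of Rpl37 was 0.25. Rpl32 (ENSMUSG00000057841.5, chr6:115805505-115808747, minus strand), another 60S protein, had 16754 and 15614 against 11918 and 12348. These groups did not overlap either, and the log2 difference was 0.41 ± 0.10 (limma adjusted p = 0.0479). 62.4% of its coding stretches are its own, and the median of the 75 tested genes within 5 Mb was 0.10. Its exons overlap those of Cand2 on the opposite strand, which had 2508 and 3096 against 2823 and 2274, and of Snora7a on the same strand. Whether counting used strand is not given. Without resistant replicate 1 or 2, Rpl37 stood at 0.41 and 0.57 (limma adjusted p = 0.382 and 0.161) and Rpl32 at 0.36 and 0.47 (0.487 and 0.291). With limma voom on the recovered reads, Rpl37 was at 0.45 (adjusted p = 0.0536) and Rpl32 at 0.37 (0.0753). With the replicate number as a block, the adjusted p was 0.073 and 0.163.

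Other large subunit genes with sizeable estimates missed the threshold. Rpl10a, a protein of the L1 stalk, had 1883 and 1369.7 normalized counts against 839 and 1524, with the higher control above the lower resistant library (0.51 ± 0.28, limma adjusted p = 0.292). Its estimate was 0.08 without control replicate 1 (adjusted p = 0.76) and 0.94 without control replicate 2 (adjusted p = 6.77e-09). Rpl23a, which lies at the tunnel exit, had 20.4 and 21.5 against 19.2 and 48.4, overlapping groups (-0.53 ± 0.47). Its estimate was -1.17 without control replicate 1 (limma adjusted p = 0.0309) and 0.12 without control replicate 2 (adjusted p = 0.892). Rpl29 had 31.6 and 37.5 against 54.8 and 38.3 (-0.40 ± 0.33), and its estimate ran from -0.65 to -0.15 when 1 library was left out. Rpl5, which binds 5S rRNA and, with Rpl11, inhibits Mdm2, had 1040.5 and 893 against 1297 and 1189 (-0.36 ± 0.14, limma adjusted p = 0.143). Rpl11 was at -0.11 ± 0.18. In the P stalk, none of the 3 genes passed in limma, at an unadjusted p under 0.05, or in voom: Rplp0, the base of the stalk, had -0.16 ± 0.12 and Rplp2 -0.12 ± 0.10, with Rplp1 as above.

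In the small subunit, 1 of 31 tested genes was called, and it was lower (median log2 difference 0.06). Fau (ENSMUSG00000038274.13, chr19:6057844-6059524, plus strand) encodes Rps30 as a fusion with a ubiquitin-like protein, from which Rps30 is cleaved. It had 194 and 182 normalized counts in the resistant libraries and 310.3 and 328 in the controls, with no overlap. The log2 difference was -0.76 ± 0.18 (limma adjusted p = 0.0379). None of its 50-base coding stretches is its own, and the pseudogene Gm9843, shown above, had 118 and 165 against 198 and 198, the same order of groups. The median of the 215 tested genes within 5 Mb of Fau was -0.25. Without resistant replicate 1 or 2 the difference was -0.80 and -0.72 (limma adjusted p = 0.279 and 0.333), and with the replicate block the adjusted p was 0.103.

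The widest small subunit estimates in both directions came from genes with few counts. Rps13 had 157 and 104 against 82.6 and 80.7 (0.64 ± 0.27, limma adjusted p = 0.182), and leaving out resistant replicate 1 gave 0.35, resistant replicate 2 0.93. Rps2, at the mRNA entry channel, had 137 and 129.8 against 84.5 and 92.8 (0.58 ± 0.22, adjusted p = 0.148). In both genes the groups did not overlap. Rps6, with the values given above, was lower in each resistant library than in each control (-0.84 ± 0.34, adjusted p = 0.167). Rps24, mutated in some cases of Diamond-Blackfan anemia, had more reads, at 13526 and 10214 against 7986 and 9286 (0.45 ± 0.15, limma adjusted p = 0.115). The median SE was 0.23 for main copies with no coding stretch of their own and 0.14, 0.13 and 0.13 in the 3 classes above. The own share of coding sequence showed little relation to the log2 difference (rho = 0.14 over 76 genes, a description).

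Among the paralogs, Rps27l was higher in resistant cells. Rps27l (ENSMUSG00000036781.13, chr9:66946086-66949516, plus strand) had 1429.8 and 1187 normalized counts in the resistant libraries and 817 and 789.7 in the controls, with no overlap. The log2 difference was 0.70 ± 0.14 (limma adjusted p = 0.024), and the median of the 78 tested genes within 5 Mb was 0.23. Its main copy Rps27, by the same measure, had 181 and 129 against 144 and 254 (-0.32 ± 0.31, limma adjusted p = 0.558), with overlapping groups. The log2 ratio of Rps27l to Rps27 was 2.97 and 3.20 in the resistant libraries and 2.49 and 1.63 in the controls, a difference of 1.02. Rps27l thus took 88.7% (exact 95% binomial interval 87.1 to 90.3) and 90.2% (88.4 to 91.8) of the reads of the pair in resistant libraries. In control libraries it took 85.0% (82.6 to 87.2) and 75.7% (72.9 to 78.2). Rps27 has no 50-base coding stretch of its own, so its level is uncertain. Rps27rt, a protein-coding copy of Rps27 outside the rule, had 66.2 and 71.9 against 28.8 and 48.4 (0.87 ± 0.33, limma adjusted p = 0.148). Rps27l was also called with limma voom (0.66, adjusted p = 0.0325) and with the replicate block (adjusted p = 0.0279). It missed the threshold without resistant replicate 1 (0.56, adjusted p = 0.309) or resistant replicate 2 (0.83, adjusted p = 0.0908), and with no filter on low values (0.70, adjusted p = 0.0941).

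The other paralogs did not pass the test. Rpl7l1, whose product acts in assembly of the large subunit, had 6001 and 5517 against 4565 and 4474 (0.35 ± 0.10, limma adjusted p = 0.0803), with no overlap. Rpl7 had 24529 and 20670.0 against 22501 and 25243 (-0.08 ± 0.13). Rpl7l1 made up 19.7% (exact 95% binomial interval 19.2 to 20.1) and 21.1% (20.6 to 21.6) of that pair in resistant libraries and 16.9% (16.4 to 17.3) and 15.1% (14.6 to 15.5) in controls. Rpl22l1 had 1237 and 926 against 928 and 1045, overlapping groups (0.12 ± 0.17), and made up 4.38% to 5.13% of its pair with Rpl22, which was at 0.03 ± 0.13. An antisense gene, Gm33051, overlaps the exons of Rpl22l1, and the protein-coding Gm49383 overlaps those of Rpl36al on the same strand. Rpl36al had 154 and 163 against 169 and 219.9, without overlap (-0.28 ± 0.22, limma adjusted p = 0.456), and Rpl36a was at 0.02 ± 0.24. Neither Rpl36al nor Rpl36a has a 50-base coding stretch of its own, and they are 87.7% identical in coding sequence, so their split is uncertain. Rps27l and Rps27 are 76.2% identical, Rpl7l1 and Rpl7 52.7%, and Rpl22l1 and Rpl22 66.9%. 4 of the 7 paralogs were tested, so 1 call of 4 is set beside the 10.1% of all genes without more being read from it.

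**Figure D3:**
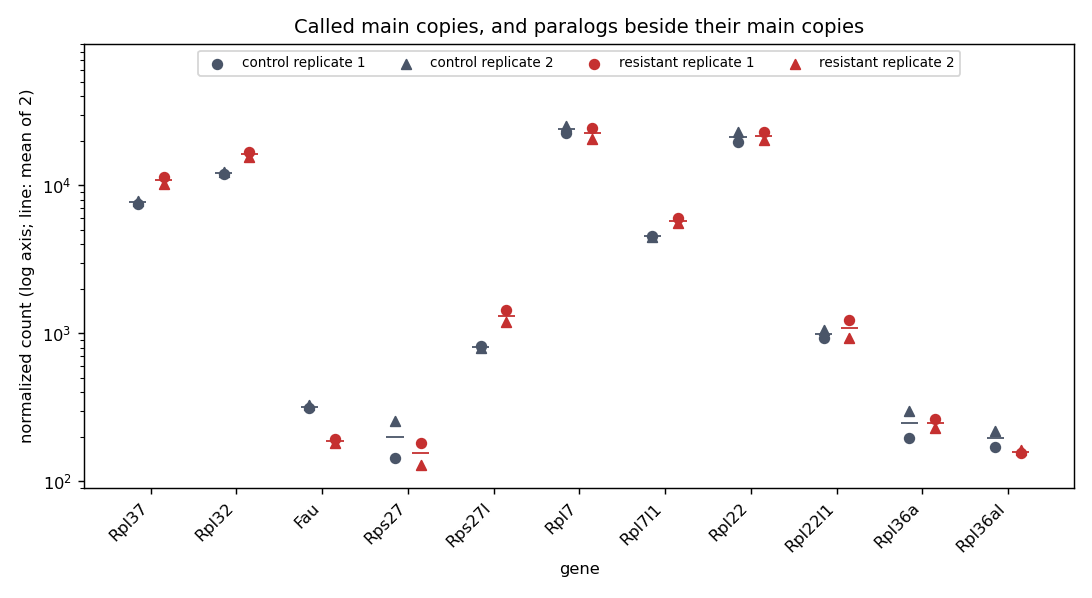
Normalized counts (log axis) of the called genes, of the tested paralogs and of their main copies in each of the 4 libraries; each point is 1 library and each line the mean of a group. Both resistant libraries lie above both controls for Rpl37, Rpl32, Rps27l and Rpl7l1, and below them for Fau and Rpl36al.

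The main copies shared a difference between the libraries of each group. In 62 of 76 the level was higher in control replicate 2 than in control replicate 1 (median log2 difference 0.18), and in 68 of 76 it was higher in resistant replicate 1 than in resistant replicate 2 (median 0.17). 58 of 76 did both, beside 4322 of the 14238 genes tested, whose median differences were -0.02 in both pairs. The replicate numbers have no order, and these directions are only those of the labels. Rpl36, a 60S protein, had 287 and 151 normalized counts in the resistant and 146 and 361 in the control libraries, log2 differences of 0.92 and 1.30 within the groups. Rpl12 of the stalk base had 1675 and 1081 and then 830 and 2037, differences of 0.63 and 1.29. Rps10 had 152 and 88.0 and then 53.8 and 129, differences of 0.78 and 1.25. Rps12 had 937 and 546 and then 406 and 887, differences of 0.78 and 1.12. In each of these genes the groups overlapped. Across the 76 main copies the differences within the 2 groups correlated with r = 0.59 and rho = 0.46, beside a rho of 0.44 over all genes tested, as a description. The own share of coding sequence had a rho of -0.03 and -0.01 with them.

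**Figure D4:**
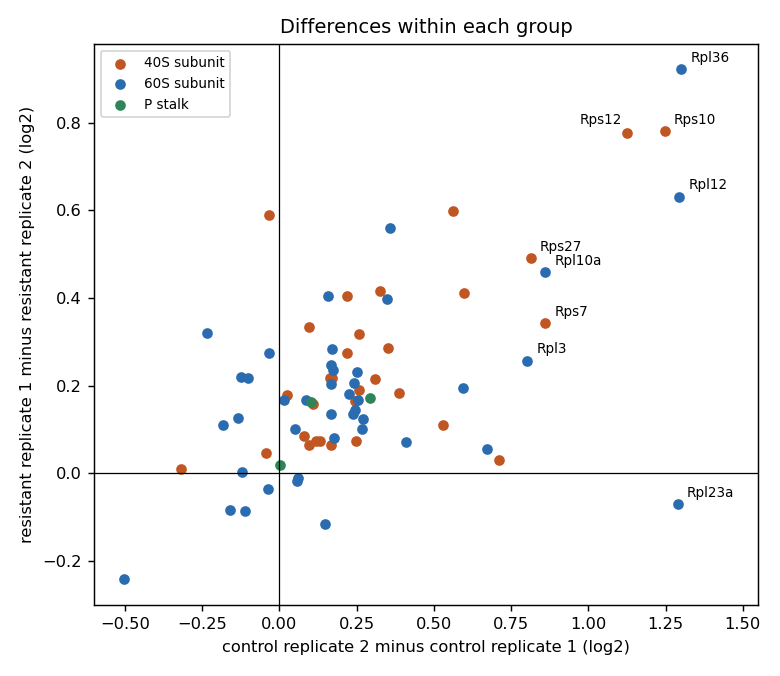
Log2 difference between the control libraries (replicate 2 minus 1, horizontal) and between the resistant libraries (replicate 1 minus 2, vertical) for the 76 main copies tested; each point is a gene, coloured by subunit. 58 of 76 lie in the upper right, with Rpl36, Rpl12, Rps10 and Rps12 farthest out.

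Other genes moved with these library differences. All 11 tested snoRNA host genes, which like ribosomal protein genes often make TOP RNAs, were higher in control replicate 2 than 1 and in resistant replicate 1 than 2 (medians 0.89 and 0.66). Of 18 other TOP mRNAs tested, 16 did both (medians 0.16 and 0.15), near the size in the main copies. So did 15 of 21 genes of ribosome recycling, rescue and quality control and 10 of 14 chaperones of ribosomal proteins. Among mitochondrial ribosomal proteins 39 of 77 did, and among regulators of TOP translation 6 of 18. All 7 tested mitochondrially encoded genes went the other way in both pairs (medians -0.50 and -0.24). 6 of these 7 were called higher in resistant cells (85.7%, beside 5.32% of all genes tested, median 0.84). Another 6 of the 13 mitochondrial genes were listed at 0 reads. Of 14 immediate early genes tested, 1 was higher and 2 were lower (21.4%, beside 10.1% of all genes tested), with a median of 0.04. Atf3 was higher (0.83, limma adjusted p = 0.0209), and Egr1 (-2.56, adjusted p = 0.00185) and Zfp36 (-0.58, adjusted p = 0.0353) were lower. The part of these lists in the ribosomal protein values was not tested.

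The starts of the genes were read for the TOP tract. RefSeq promoters (GRCm38.p6, 250 bases before to 50 after the start) matched 65 of the 85 members, with 77 promoters. A run of at least 8 pyrimidines within 15 bases either side of the annotated start occurred in 37.7% of them, in 12.0% of the 75 mitochondrial ribosomal protein promoters and in 12.0% of all 32851. The 30 bases around the start of Fau (chr19:6057932-6057961, plus strand), Rps6 (chr4:86857353-86857382, minus strand), Rpl37 (chr15:5116598-5116627, plus strand) and Rps27l (chr9:66946071-66946100, plus strand; the first of 2 starts) are shown with the longest pyrimidine run in capitals, because 3 of them were called and Rps6 had the most negative estimate.
Fau start: tgcgcgcccccaCTTCTTCCTCTTTCTTga
Rps6 start: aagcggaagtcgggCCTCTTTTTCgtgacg
Rpl37 start: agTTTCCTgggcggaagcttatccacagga
Rps27l start: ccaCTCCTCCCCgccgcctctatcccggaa
The runs were 16, 10, 6 and 9 bases long, with 4 at the second start of Rps27l. The window of Rpl37 ends before the start of that gene in GENCODE M21 (chr15:5116645), so its run may not be that of the mRNA. No window was available for Rpl32, which was also called. The annotated start can lie some bases away from the start used. CCGGAAG, searched on both strands over the 300 bases, was in 35.1% of member promoters, 34.7% of mitochondrial ribosomal protein promoters and 8.86% of all. AAGATGGC was in 11.7%, 16.0% and 2.75%, CACGTG in 10.4%, 9.33% and 7.15%, and TATAAA in 9.09%, 6.67% and 13.6%. A match of letters is not a binding site.

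Genes that work with the ribosome were read from lists made with earlier results of these data known. Of 18 other TOP mRNAs tested, 2 were higher and none lower (11.1%, beside 10.1% of all genes tested), and the median log2 difference was 0.21. They were Eif3e (0.56 ± 0.13, limma adjusted p = 0.0364) and Eif3l (0.44 ± 0.11, adjusted p = 0.0457), subunits of the initiation factor eIF3. The median of the tested genes within 5 Mb was 0.44 for Eif3e and 0.18 for Eif3l. Of 18 tested regulators of TOP translation, 3 were higher and none lower (16.7%, median 0.10). Deptor, an mTOR inhibitor, had 3681 and 3906 normalized counts against 2066 and 1827 (0.96 ± 0.12, limma adjusted p = 0.00322). Mlst8, a subunit of both mTOR complexes, was at 0.68 ± 0.13 (adjusted p = 0.0225) and Eif4ebp1, a translation repressor that mTOR inactivates, at 0.42 ± 0.10 (0.0399). The median of the tested genes within 5 Mb was 0.36 for Deptor, 0.33 for Mlst8 and 0.06 for Eif4ebp1. Limma voom called 2 of the regulators and 0 of the other TOP mRNAs, of which 5 were at an unadjusted p under 0.05 in the first fit. Of 21 genes of ribosome recycling, rescue and quality control, 2 were higher, Dnajc2, a ribosome-bound chaperone (0.56 ± 0.12, limma adjusted p = 0.0286), and Ifrd2, which binds idle ribosomes (0.54 ± 0.14, adjusted p = 0.0466). That is 9.52% of the list, whose median was 0.08. The median of the tested genes within 5 Mb was 0.14 for Dnajc2 and 0.13 for Ifrd2. In the 9 elongation factors, the 14 chaperones of ribosomal proteins and the 11 snoRNA hosts tested, limma and voom called 0, with 1, 4 and 1 at an unadjusted p under 0.05 (26.4% of all genes tested were) and medians of 0.07, 0.22 and 0.06. The mitochondrial ribosomal proteins, 77 tested, had 2 higher and 1 lower, or 3.90%, with a median of 0.04.

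Markers of the labelled cells and of others were read in the same libraries. Krt18, Krt8 and Cdh1 led the epithelial list, whose summed level was 47620 and 55373 in the resistant and 66565 and 43077 in the control libraries. Krt18 and Krt8 made up most of that sum, and neither was called. 3 of the 6 epithelial markers were: Krt19 (2.97, limma adjusted p = 0.000812) and Krt7 (1.90, adjusted p = 0.0139) were higher in resistant cells and Epcam lower (-1.53, adjusted p = 0.011). The T and NK cell list summed to 1.01 to 3.22 with 4 of 8 genes at 0, and the red blood cell list to at most 2.02 with all 4 globins at 0. The myeloid list, led by Cd68 and Cd14, summed to 11268 and 10786 against 4942 and 7519, with Tyrobp and C1qa at 0. Its tested genes went opposite ways: Cd68 was higher (1.18, limma adjusted p = 0.0356) and Cd14 lower (-0.92, adjusted p = 0.0287). The neutrophil list summed to 396 and 393 against 800 and 421, nearly all from S100a8, which was not called (-0.56). The B cell list summed to 7.13 and 8.58 against 34.6 and 31.3. Pax5, its 1 tested gene, was lower (-4.05, limma adjusted p = 0.0104). The pericyte and muscle list summed to 880.5 and 1114 against 501 and 437, and the fibroblast list to 7147 and 8502 against 9305 and 6413. Of the 6 tested pericyte and muscle genes, Des (2.08, limma adjusted p = 0.00447) and Pdgfrb (1.00, adjusted p = 0.0252) were higher and 0 were lower. Rgs5 (-0.05) and Myh11 (-0.88) had negative estimates and were not called. Pdgfra made up most of the fibroblast sum and was not called (0.12), while Dcn was lower (-1.99, limma adjusted p = 0.00343). Their part in the ribosomal protein values was not tested.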

How the data were processed

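The deposited table holds log2 values that the authors made with STAR, DESeq2 and mm10. These names are per the submitters' processing notes, without versions or settings. From the values, each is the log2 of 1 plus the count over the library's size factor: taken back, 100% of values were whole reads at a tolerance of 0.01. Of 55385 genes, 28603 had no read and 55144 matched a symbol in GENCODE M21. The 14238 genes whose mean normalized count reached 10 entered a limma 3.58.1 fit (R 4.3.3, lmFit and eBayes with trend, no block) of the deposited values, with Benjamini-Hochberg adjustment over all of them at 0.05. Fold changes on this scale understate the change of low genes. The scripts were tested on simulated data. Named genes were the paralogs with a read and their main copies, the main copies past the threshold, the 6 most abundant, the 4 most positive and 4 most negative, and list genes past the threshold. Mitochondrially encoded genes and mitochondrial ribosomal proteins past the threshold were counted but not named. 1 of the most abundant is not reported here. Other members were named after their values were seen. The members and lists were chosen with earlier results of these data known. Same-numbered libraries deviated in opposite directions (r = -0.36 over all genes tested, -0.59 over the main copies), and the first fit did not pair them. With 2 libraries a group, this cannot show whether same-numbered libraries were prepared together. Intervals, and the floor of 3 reads, reflect counting error alone. Alternatives were another pseudocount, filters, scalings, robust moderation, voom on the recovered reads, blocks and leaving out each library.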

Additional observations from a re-analysis of the deposited data

How the results depend on the processing

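With 2 libraries a group, calls among the main copies hung on single libraries and on the filter. Against 2 higher and 1 lower in the first fit, no filter on low values gave 0 and 0 (8 of 78 at an unadjusted p under 0.05 in limma, beside 26.4% of all genes in the first fit), a mean of at least 50 gave 1 and 1, scaling by all counted reads 1 and 1, scaling by reads outside the members 0 and 1, robust moderation 1 and 1, and limma voom 0 and 1 (8 unadjusted). Leaving out 1 library in turn gave 0 to 11 higher and 0 to 7 lower main copies, and 146 to 2074 higher and 234 to 1993 lower genes of all tested. The 0 counts came without resistant replicate 1 or resistant replicate 2 (1 and 6 at an unadjusted p under 0.05). Each such fit assumes that the lone library of a group varies like the other group. Among the named main copies, calls were gained by Rpl10a (0.94) and Rpl3 (0.78) without control replicate 2, and Rps27 (-0.73) without control replicate 1, besides Rpl23a. Rpl7l1 passed without either (0.36 and 0.33). Without the filter, 126 genes were higher and 185 lower over all genes, against 758 and 674. The mean of at least 50 gave 611 higher and 524 lower of all genes, and robust moderation 745 and 664. Scaling by all counted reads gave 657 and 799, scaling by reads outside the members 651 and 789, and limma voom 645 and 771. Restricting the main copies to the 19 with at least 20% of their coding stretches their own, chosen after seeing the data, left 1 higher and 0 lower (2 unadjusted, and 0 by voom). No named gene changed sign past the threshold. The median over the main copies was 0.03 under both read scalings and voom, where that of all genes shifts by -0.04. The pair differences of paralogs do not change when taken per length, since length adds the same constant in every library, and at a pseudocount of 10 the difference of Rpl3l and Rpl3 went from 0.65 to -0.23.

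With the replicate number as a block, 0 main copies were higher and 0 lower (5 at an unadjusted p under 0.05 in limma), and 628 and 585 of all genes. Crossing the numbers in the replicate block, chosen after seeing the data, gave 9 higher and 4 lower main copies and 2402 and 2182 of all genes.

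Low counts limit what can be said of the main copies without coding stretches of their own, whose median SE was 0.23.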

Other observations

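Pseudogenes with a ribosomal protein symbol followed by -ps took few of the reads. That set leaves out copies with other symbols, such as Gm9843 and Rpl37rt. The 296 pseudogenes with such a -ps symbol held 0.0124% and 0.0105% of reads in the resistant libraries and 0.00954% and 0.0114% in the controls. 38 of them were tested, and limma and limma voom called 0, with 5 at an unadjusted p under 0.05 (26.4% of all genes tested were) and a median log2 difference of 0.13. Among copies of Rps6, Gm8925 had 9.17 and 11.8 normalized counts against 14.4 and 10.1, and Rps6-ps1 9.17 and 7.51 against 5.76 and 9.08. Rack1, a scaffold on the small subunit that lies outside the naming rule, had 113393 and 98591 against 86652 and 114386, overlapping groups (0.09 ± 0.18). The member genes lie on 20 chromosomes, with 14 on chromosome 7.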
